A study of Homo sapiens with 6 samples.

Results

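Clustered histone genes, the family that supplies histones for new chromatin, were followed across the libraries. The members were the 72 genes annotated as protein coding whose names start with HIST1, HIST2, HIST3 or HIST4, out of 58302 listed genes. They carried 71 different names, since HIST1H3D was listed under 2 identifiers. By class they were 6 linker H1, 17 H2A, 18 H2B, 16 H3 and 15 H4 genes. RNA was sequenced from HCCLM3 cells, an established human hepatocellular carcinoma line known for its metastatic capacity. The cells of all libraries were transfected with an ASO (antisense oligonucleotide), a synthetic strand complementary to an RNA whose level it is meant to reduce. There were 3 libraries with Control ASO and 3 with SCARNA13 ASO, and the comparison asked what lies downstream of SCARNA13, a small RNA of the Cajal body, a nuclear body where small RNAs mature. The labels give no time, dose or sequence of the oligonucleotides, and do not state that replicates were separate cultures. The p-values therefore rest on a spread between libraries that may be technical.

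Histones package DNA: H2A, H2B, H3 and H4 form the nucleosome core, and H1 binds the linker DNA. The clustered genes are expressed mainly in S phase, when new chromatin is assembled. Their transcripts usually end in a short hairpin (stem-loop) and have no poly(A) tail, and some members can also make longer, polyadenylated transcripts. The stem-loop is bound by SLBP, and the end is cut with the help of the U7 small nuclear RNA. Histone gene clusters are associated with the histone locus body, a nuclear body related to the Cajal body. The library kit named in the labels' protocols, Illumina TruSeq RNA, is generally known to select polyadenylated RNA and not to mark strand. The levels reported are therefore those of transcripts that this kit captured, and not of all histone mRNA. In bulk samples, fewer cells in S phase and less histone mRNA per cell cannot be told apart.

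The libraries held between 20457474 and 25173559 reads assigned to genes. Replicate 3 stood apart in both groups: the scale behind the deposited FPKM values (fragments per length of gene and size of library) implied a library size of 0.633 and 0.760 times its reads, against 1.21 to 1.24 in the other libraries. SCARNA13 itself was covered by 6, 5 and 2 reads in controls and 2, 3 and 2 with SCARNA13 ASO (ratio of scaled reads 0.53, exact 95% interval 0.179 to 1.43 for counting error only). Of 11 liver cell markers, only SERPINA1 reached a mean of 1 FPKM (2.06), and ALB, APOA2, APOB and FOXA2 were at 0. The 11 summed to between 1.62 and 3.22 FPKM in controls and 1.53 and 2.89 FPKM with SCARNA13 ASO. The epithelial keratins KRT8, KRT18 and KRT19 were abundant, EPCAM was near 0 and CDH1 was at 0. The 5 epithelial markers summed to between 2180 and 5316 FPKM in controls and 2117 and 4146 FPKM with SCARNA13 ASO. Markers of other cells were low: COL3A1 alone of 6 fibroblast genes and CD14 alone of the immune genes reached 1 FPKM, none of 4 endothelial genes did, and KDR and CD3E were at 0. The summed levels ran from 5.83 to 6.89 FPKM in controls and 6.24 to 8.60 FPKM with SCARNA13 ASO for the fibroblast list. They ran from 2.87 to 6.85 against 2.25 to 3.27 FPKM for the immune list, and stayed at or under 0.106 FPKM for the endothelial list. The part of these markers in the histone values was not tested.

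The hairpin that defines the family was found in the longest GENCODE 29 coding transcript of 28 of the 37 members whose transcript goes on past the stop codon. The search was for 16 letters starting with GG, with 6 letters at each end that pair with each other and a loop that starts with TT. Hairpins that depart from this pattern could not be found. The forms below are limited by it, and a gene without a match may hold a variant. Of the 28 hairpins, 27 began within 100 bases of the coding end (22 to 337 bases, median 37). Only 4 forms occurred: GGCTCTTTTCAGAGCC in 17 H2A, H2B and H3 genes, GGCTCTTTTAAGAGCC in 3 H2B and H3 genes, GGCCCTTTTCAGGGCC in 5 H4 genes and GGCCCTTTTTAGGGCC in 3 H4 genes. In 20 of the 28, the annotated transcript goes on for 200 bases or more after the hairpin, and in 8 it ends within 100 bases of it. The hairpins of 7 members that were measured well follow, on GRCh38, because they hold members with lower and with higher levels with SCARNA13 ASO. Capitals mark the hairpin, and 5 bases on each side are in lower case.
HIST3H2A (chr1:228457364-228457389, minus strand): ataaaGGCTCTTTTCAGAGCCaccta
HIST1H2AE (chr6:26217412-26217437, plus strand): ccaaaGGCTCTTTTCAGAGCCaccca
HIST1H2AC (chr6:26124664-26124689, plus strand): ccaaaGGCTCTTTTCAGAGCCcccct
HIST2H2BE (chr1:149886183-149886208, minus strand): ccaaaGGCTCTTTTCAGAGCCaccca
HIST1H2BG (chr6:26216213-26216238, minus strand): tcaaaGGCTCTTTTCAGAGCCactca
HIST1H4I (chr6:27139649-27139674, plus strand): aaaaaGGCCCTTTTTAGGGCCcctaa
HIST1H4H (chr6:26285126-26285151, minus strand): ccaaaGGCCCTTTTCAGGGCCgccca
The same 16 letters thus occur in HIST1H2AE and HIST2H2BE, whose levels were lower with SCARNA13 ASO, and in HIST1H2AC, whose levels were slightly higher. The match is a description of the transcript models and not a measurement of which end the captured transcripts had.

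Members were detected very unevenly. Of the 72, 21 had no read in any library, 16 had between 1 and 19 reads over the 6 libraries (110 reads in all), and 35 had 20 reads or more. All 6 H1, 11 of 17 H2A, 13 of 18 H2B, 11 of 16 H3 and 10 of 15 H4 genes had at least 1 read. The members took 52932 reads together, and HIST1H1C and HIST1H2BK took 53.5% of these. With HIST3H2A and HIST1H4I the share was 76.1%. The family made up 0.0454%, 0.0447% and 0.0617% of the reads in Control ASO libraries 1, 2 and 3. It made up 0.0315%, 0.0282% and 0.0267% in SCARNA13 ASO libraries 1, 2 and 3. Every share with SCARNA13 ASO lay below every control share.

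Reads were spread unevenly over the chromosomal groups of members. The members between chr6:25726132-26285638 numbered 35, of which 8 had no read, and took 23925 reads. The 5 members between chr6:27125897-27147515 took 19129 reads, and all 5 were detected. The 16 members between chr6:27807444-27893843 took only 109 reads, and 11 of them had none. On chromosome 1, 11 members between chr1:149782689-149887916 took 1905 reads and 3 members between chr1:228424845-228460470 took 7736. HIST4H4 on chromosome 12 had 128 reads, and HIST2H3PS2 lay alone on chromosome 1 with none.

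**Figure D1:**
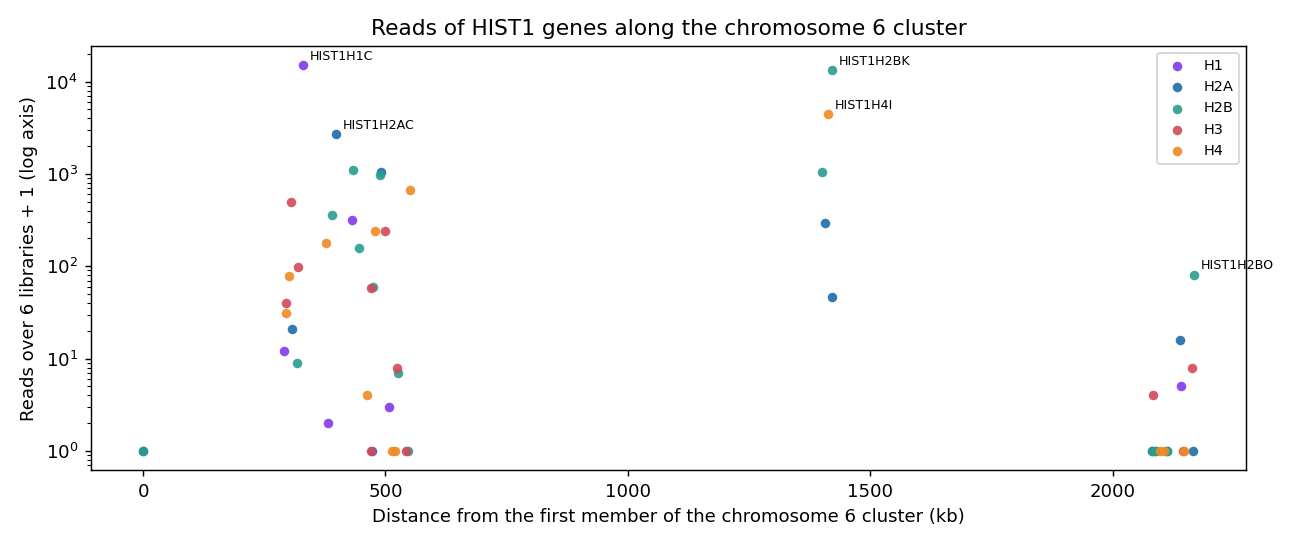
Each point is a member on chromosome 6, with its distance from the first member (kb) on the x axis and its reads over the 6 libraries plus 1 on a log y axis, coloured by class. The 16 members at the far end hold 109 reads in all, while the 5 members of the middle group hold 19129.

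Near-identical copies and overlapping genes bear on the members without reads, and a count of 0 also allows up to 3 reads by counting error. Among the 21 members without a read, 10 had under 50% of the 50-base windows of their transcript unique among all GENCODE 29 transcripts, and 7 overlapped an exon of another gene. The other 11 had over 85% of windows unique. Among the 24 members that were tested, 20 had over 85% of windows unique and none overlapped another gene. HIST1H2BK is an exception: only 25.9% of its windows were unique, and 61.4% also occur in H2BFS, which was listed with 8 reads in controls and 10 with SCARNA13 ASO. Values of HIST1H2BK, HIST2H2AA3, HIST2H2AA4 and, at 69.5% unique, HIST2H2AC are uncertain to the extent that reads could be assigned to copies. Below the level tested, the same holds for the detected HIST1H3D entry (47.7% unique) and HIST1H2BE (69.5%). Their exons overlap other genes by 1329 and 730 bases.

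The question for the family was whether its members were lower or higher with SCARNA13 ASO, and by how much. The 24 members whose level averaged 1 FPKM or more across libraries were tested, and 48 were not. In limma-trend on log2(FPKM + 0.5) with group as the only term, 0 of the 24 passed a Benjamini-Hochberg adjusted p of 0.05, as did 0 of 10120 genes (0% of all genes tested, in either direction). At an unadjusted p under 0.05 the count was 6 of 24, 5 of them lower, against 1.71% of all genes tested. With limma-voom on the recovered reads and no block the count was also 0. The replicate numbers were taken as pairs from the titles, although the values set apart only replicate 3 and do not show how replicates 1 and 2 pair. The fit with the replicate number as a block again called 0 members. In it 16 had an unadjusted p under 0.05, against 25.7% of all genes tested. With the block and a correction for GC content, 7 members fell, 0 rose and 17 did not pass. In that fit 2.15% of all genes tested were lower and 3.06% higher. The 7 were HIST1H1C, HIST3H2A, HIST1H2AE, HIST2H2AA4, HIST1H2BK, HIST2H2BE and HIST1H3B. Without replicate 1 the GC-corrected blocked fit called 2 members (HIST1H2AE and HIST1H3B), both lower, against 15 of 10104 genes, 8 of them lower. Without replicate 2 it called 0 members and 0 genes. Without replicate 3 it called 9 members, all lower, against 746 of 10104 genes, 330 of them lower. For replicates 1 and 2 alone with the block and no GC correction, 8 members were called, all lower, of which 6 were among the 7, and 2.9% of all genes were called lower. Limma-voom with the block called 9 members, all lower, against 2.93% of all genes.

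The direction was shared by most tested members but not by all. Within replicate number, 17 of 24 were lower in 3 of 3 pairs and 2 were higher in 3 of 3, against 29.6% and 23.9% of all genes tested. All SCARNA13 ASO libraries were below all controls for 7 members and above them for 1, against 4.44% and 4% of all genes. The median log2 difference of the 24 was -0.82 in the fit with group alone, -0.80 in the GC-corrected blocked fit and -0.49 over replicates 1 and 2, where the medians of all genes were -0.025, 0.00023 and -0.0100. By replicate number the medians were -0.40, -0.59 and -1.16 for replicates 1, 2 and 3.

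**Figure D2:**
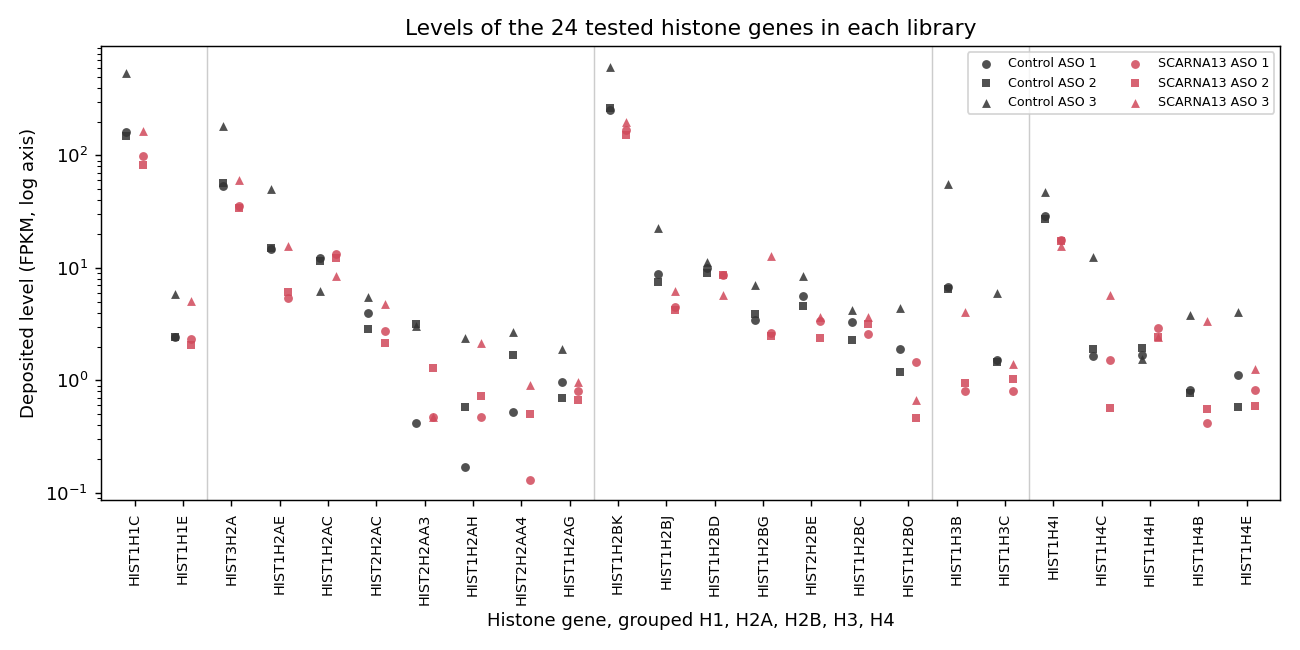
Deposited level (FPKM, log axis) of the 24 tested members in each library, grouped by class, with Control ASO in dark grey and SCARNA13 ASO in red, and a marker shape for each replicate number. The highest point of HIST1H1C, HIST3H2A, HIST1H2AE, HIST1H2BK and HIST1H3B is Control ASO replicate 3, while HIST1H2AC and HIST1H4H are lowest there.

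In the linker class, the abundant member fell in the GC-corrected blocked fit and the next did not pass. HIST1H1C (ENSG00000187837, chr6:26055787-26056428, minus strand), which encodes a widely expressed somatic H1, measured 160, 148 and 535 FPKM in controls and 98.4, 82.4 and 166 FPKM with SCARNA13 ASO. Control 3 was far above the other controls, and the treated library of replicate 3 lay slightly above the lower controls, so the groups overlapped although each pair was lower. The means were 281 ± 220 FPKM in controls and 115 ± 44.1 FPKM with SCARNA13 ASO (SD, n = 3), and the reads were 10159 and 4877. Its log2 difference was -1.08 ± 0.58 (SE) with group alone and -1.01 ± 0.16 in the GC-corrected blocked fit (limma-trend adjusted p = 0.0437; 0.0041 to 1.0 over the alternatives), or 50.5% lower. HIST1H1E, another somatic H1, measured 2.44, 2.44 and 5.88 FPKM in controls and 2.35, 2.05 and 5.03 FPKM with SCARNA13 ASO, a log2 difference of -0.087 ± 0.086 that did not pass (adjusted p = 0.523; 0.282 to 1.0). HIST1H1A and HIST1H1B, below the level tested, had 11 and 4 reads.

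Among the H2A genes, 3 of 8 tested fell in the GC-corrected blocked fit and 5 did not pass. HIST3H2A (ENSG00000181218, chr1:228456979-228457873, minus strand), an H2A gene outside the large clusters, measured 54.0, 56.5 and 182 FPKM in controls and 35.2, 33.9 and 60.9 FPKM with SCARNA13 ASO. Each pair was lower, and the treated library of replicate 3 lay above controls 1 and 2. Its log2 difference was -0.91 ± 0.16 in that fit, or 46.6% lower (adjusted p = 0.0477; 0.0061 to 1.0). HIST1H2AE (ENSG00000277075, chr6:26216975-26217483, plus strand) measured 14.7, 14.9 and 50.4 FPKM in controls and 5.36, 6.06 and 15.7 FPKM with SCARNA13 ASO. Its 3 pairs were closer to each other than those of HIST3H2A, at -1.37, -1.23 and -1.66 on the log2 scale. The log2 difference was -1.36 ± 0.068, or 61.0% lower (adjusted p = 0.0241; 0.00058 to 1.0).

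HIST2H2AA3 and HIST2H2AA4 encode the same H2A protein and can share reads, since 0% and 2.91% of their windows were unique. HIST2H2AA4 fell in the GC-corrected blocked fit (-0.93 ± 0.13, adjusted p = 0.0384; 0.0384 to 1.0) from 0.525, 1.67 and 2.71 FPKM to 0.131, 0.497 and 0.912 FPKM. HIST2H2AA3 did not pass (-0.87 ± 0.33, adjusted p = 0.15; 0.047 to 1.0), with 0.419, 3.15 and 3.06 FPKM against 0.470, 1.28 and 0.469 FPKM. Taken as 1 locus, they had 16, 71 and 42 reads in controls and 9, 28 and 12 with SCARNA13 ASO. The ratio of scaled reads was 0.374 (exact 95% interval 0.264 to 0.524, for counting error only).

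The other tested H2A genes differed in direction. HIST1H2AC, the most abundant H2A gene of the large cluster in reads, measured 12.3, 11.5 and 6.23 FPKM in controls and 13.2, 12.4 and 8.40 FPKM with SCARNA13 ASO. It was higher in 3 of 3 pairs, but the groups overlapped and the log2 difference of 0.18 ± 0.069 did not pass (adjusted p = 0.148; 0.148 to 1.0). HIST1H2AH measured 0.170, 0.582 and 2.37 FPKM against 0.476, 0.725 and 2.16 FPKM, on 20 and 26 reads, and was at 0.28 ± 0.13. HIST2H2AC was at -0.26 ± 0.13 and HIST1H2AG at -0.30 ± 0.17, both lower in 3 of 3 pairs without passing. HIST2H2AB and HIST1H2AB were not tested. HIST2H2AB had 19 reads in controls and 4 with SCARNA13 ASO, a ratio of 0.207 (0.0513 to 0.624), and HIST1H2AB had 13 and 7, a ratio of 0.53 (0.179 to 1.43).

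Among the H2B genes, 2 of 7 tested fell in the GC-corrected blocked fit. HIST1H2BK (ENSG00000197903, chr6:27146418-27146798, minus strand), the highest member per length, measured 255, 264 and 616 FPKM in controls and 169, 153 and 198 FPKM with SCARNA13 ASO. Every treated library lay below every control. Its means were 379 ± 206 and 174 ± 23.1 FPKM (SD, n = 3), and the log2 difference was -0.93 ± 0.16, or 47.7% lower (adjusted p = 0.0459; 0.0057 to 1.0). HIST2H2BE (ENSG00000184678, chr1:149884459-149886652, minus strand), whose transcript goes on for 1729 bases after the hairpin, measured 5.68, 4.57 and 8.53 FPKM in controls and 3.36, 2.37 and 3.63 FPKM with SCARNA13 ASO. Its groups did not overlap either, and it fell by 0.87 ± 0.11 on the log2 scale, or 45.2% (adjusted p = 0.0365; 0.0094 to 1.0).

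HIST1H2BJ lay just outside the threshold. It measured 8.79, 7.55 and 22.6 FPKM in controls and 4.46, 4.21 and 6.23 FPKM with SCARNA13 ASO, with no overlap, and was at -1.14 ± 0.21 (adjusted p = 0.0515; 0.0055 to 1.0). HIST1H2BD had no overlap either, with 10.003, 9.05 and 11.2 FPKM against 8.58, 8.66 and 5.69 FPKM, but at -0.39 ± 0.19 it did not pass. HIST1H2BO, the only tested member of the cluster part with 16 genes, was at -0.99 ± 0.30 on 56 and 24 reads. HIST1H2BG and HIST1H2BC were close to no difference, at -0.015 ± 0.26 and -0.031 ± 0.16, and both changed sign when values were scaled to total reads (0.050 and 0.053). HIST1H2BG went opposite ways in the pairs, with 3.43, 3.89 and 7.07 FPKM in controls and 2.62, 2.49 and 12.7 FPKM with SCARNA13 ASO, so that replicate 3 was higher and replicates 1 and 2 were lower. Below the level tested, HIST3H2BB had 113 against 98 reads, a ratio of 0.854 (0.645 to 1.13), and HIST1H2BE had 70 against 86, a ratio of 1.21 (0.872 to 1.68).

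The widest difference of a tested member was in an H3 gene. HIST1H3B (ENSG00000274267, chr6:26031650-26032060, minus strand), which encodes a canonical H3, measured 6.80, 6.49 and 55.2 FPKM in controls and 0.807, 0.939 and 4.07 FPKM with SCARNA13 ASO. Replicate 3 was the highest library of each group, and all treated libraries lay below all controls. The reads were 453 in controls and 46 with SCARNA13 ASO, a ratio of scaled reads of 0.10 (0.0718 to 0.136). The log2 difference was -2.79 ± 0.93 with group alone and -2.72 ± 0.22 in the GC-corrected blocked fit, or 84.9% lower (adjusted p = 0.0326; 0.000185 to 1.0). HIST1H3C, which encodes the same class of H3, measured 1.52, 1.46 and 5.95 FPKM against 0.807, 1.02 and 1.41 FPKM. Its groups did not overlap, but the log2 difference of -0.85 ± 0.23 did not pass (adjusted p = 0.0876; 0.0284 to 1.0). The interval of the read ratio also lay below 1 for HIST1H3A, named after its values were seen, with 28 reads against 11 and a ratio of 0.387 (0.174 to 0.802). HIST1H3E had 120 against 121 reads, a ratio of 0.993 (0.765 to 1.29), and the detected HIST1H3D entry had 32 against 25, a ratio of 0.769 (0.437 to 1.34).

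None of the 5 tested H4 genes passed in the GC-corrected blocked fit. All H4 genes encode nearly the same protein. HIST1H4I, the highest of them, measured 28.8, 27.0 and 47.5 FPKM in controls and 17.8, 17.3 and 15.6 FPKM with SCARNA13 ASO. Every treated library lay below every control, and the treated libraries were close to each other (16.9 ± 1.16 FPKM, SD, n = 3). Its log2 difference was -0.96 ± 0.21 (adjusted p = 0.0646; 0.0096 to 1.0), and it passed over replicates 1 and 2 with the block (-0.65, adjusted p = 0.0286) and in limma-voom with the block (adjusted p = 0.0096). HIST1H4H went the other way, with 1.69, 1.95 and 1.55 FPKM in controls and 2.91, 2.43 and 2.44 FPKM with SCARNA13 ASO. It was the only tested member with all treated libraries above all controls, and its log2 difference was 0.47 ± 0.10 (adjusted p = 0.0633; 0.0633 to 1.0). HIST1H4C was at -0.75 ± 0.23, HIST1H4E at -0.56 ± 0.30 and HIST1H4B at -0.27 ± 0.12, on 179, 240 and 77 reads. HIST4H4 and HIST1H4A were not tested, with 68 against 60 reads (ratio 0.869, 0.604 to 1.25) and 10 against 20 reads (ratio 1.97, 0.88 to 4.71).

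**Figure D3:**
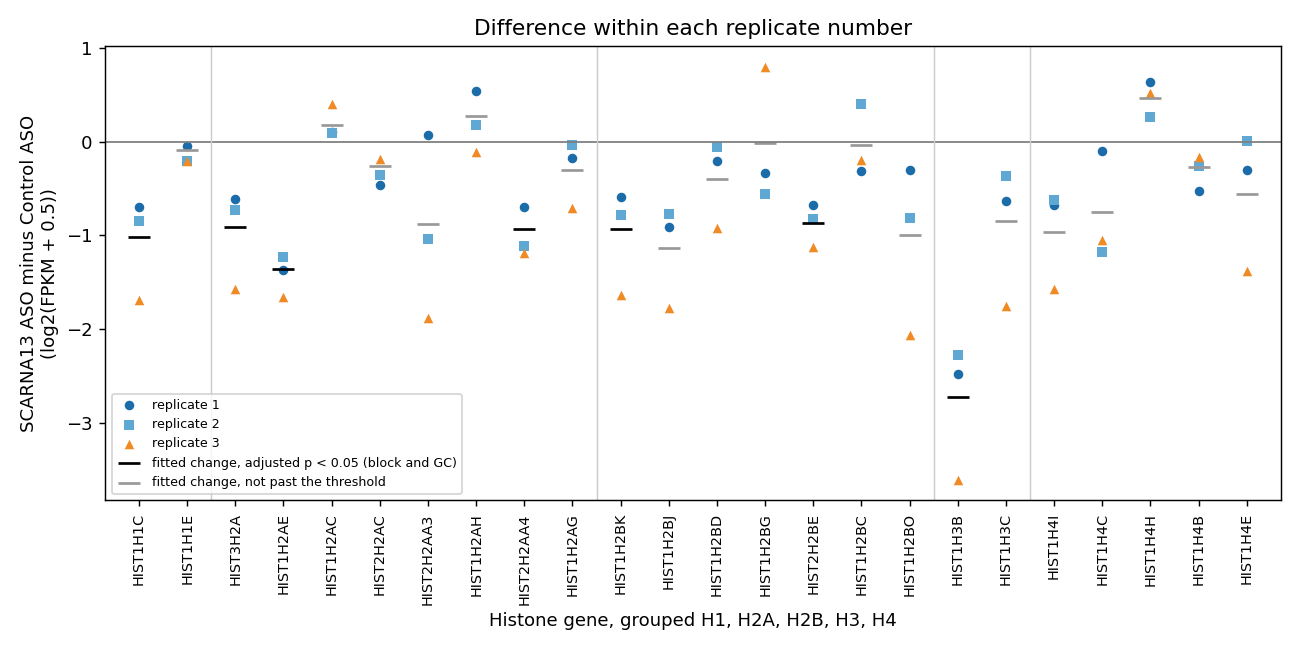
Difference in log2(FPKM + 0.5), SCARNA13 ASO minus Control ASO, within replicate 1, 2 and 3 for each tested member, with a bar at the fitted change (black where the adjusted p of the GC-corrected blocked fit was under 0.05, grey otherwise). HIST1H3B lies lowest at -2.48, -2.28 and -3.61, and HIST1H2AC and HIST1H4H lie above 0 in all pairs.

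Summed over each class, reads were lower with SCARNA13 ASO in every replicate number. The mean log2 ratio of summed scaled reads, over the 3 replicate numbers, was -1.06 ± 0.52 (SD) for H1, -0.77 ± 0.51 for H2A, -0.87 ± 0.42 for H2B, -1.49 ± 0.97 for H3 and -0.75 ± 0.45 for H4. Over all members it was -0.90 ± 0.50, with -0.56, -0.67 and -1.47 for replicates 1, 2 and 3. These sums describe a few genes: HIST1H1C made up 97.8% of H1 reads, HIST1H4I 76.8% of H4, HIST1H2BK 70.8% of H2B, HIST3H2A 62.6% of H2A and HIST1H3B 51.2% of H3. Without that gene the mean log2 ratio was -0.17 for H1, -0.41 for H2A, -0.54 for H2B, -0.49 for H3 and -0.059 for H4. The H2A and H2B sums remained lower in all pairs, while the H4 sum was at 0.31, 0.018 and -0.51 and the H3 sum at 0.11, -0.58 and -1.01 for replicates 1, 2 and 3.

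**Figure D4:**
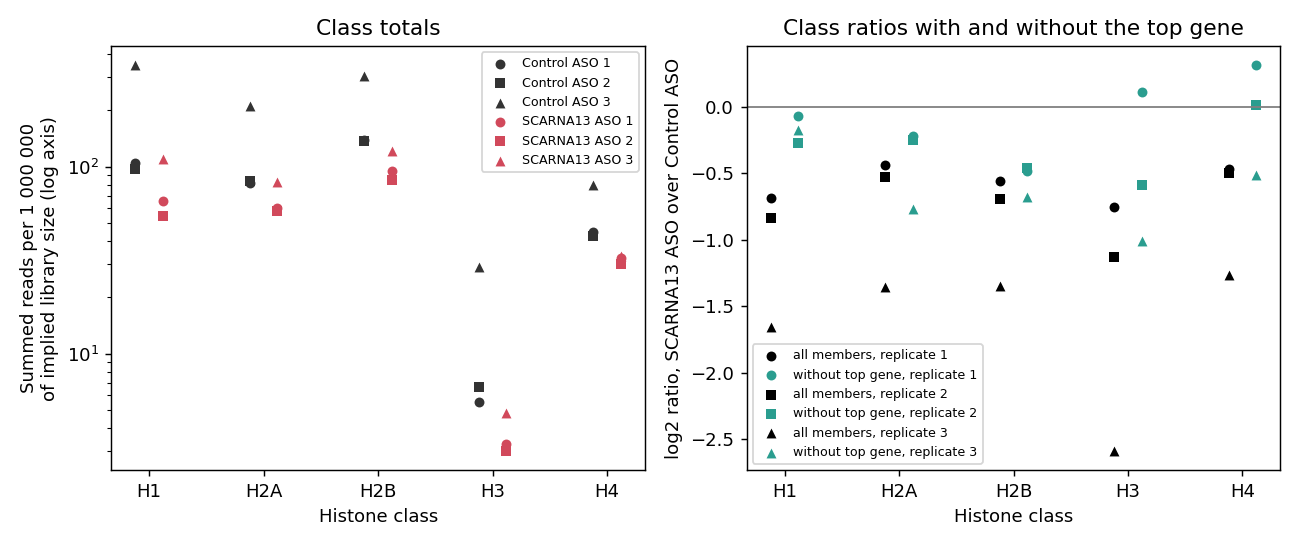
Left, reads summed over each class scaled to the implied library size (log axis) in each library, and right, the log2 ratio within each replicate number with all members (black) and without the gene with most reads (green). Without HIST1H1C the H1 ratios lie between -0.27 and -0.071, and without HIST1H4I the H4 ratios lie on both sides of 0.

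Many H2A and H2B genes stand head to head, on opposite strands with their starts close together, and so share the stretch of DNA between them. Head-to-head pairs of members with starts under 1000 bases apart numbered 13, among them 2 of an H3 and an H2B gene. The H3 models of those 2, HIST1H3D and HIST1H3J, overlap the H2A genes HIST1H2AD and HIST1H2AM. These face the same H2B genes, so HIST1H2BF and HIST1H2BO each count in 2 pairs. In 5 pairs, each of an H2A and an H2B gene, both were tested. HIST1H2BG and HIST1H2AE have 282 bases between them. The H2A side fell by 1.36 ± 0.068 in the GC-corrected blocked fit and the H2B side was at -0.015 ± 0.26. HIST1H2BG was at -0.33, -0.55 and 0.80 in replicates 1, 2 and 3, so its value near no difference rests on replicate 3. In the other 4 tested pairs the H2B side had the lower value. HIST1H2BK fell by 0.93 ± 0.16 and HIST1H2AH was at 0.28 ± 0.13, with 330 bases between them. HIST2H2BE fell by 0.87 ± 0.11 and HIST2H2AC was at -0.26 ± 0.13, with 322 bases between them. HIST1H2BJ was at -1.14 ± 0.21 and HIST1H2AG at -0.30 ± 0.17, with 291 bases between them. HIST1H2BC was at -0.031 ± 0.16 and HIST1H2AC at 0.18 ± 0.069, with 218 bases between them. The differences between the genes of a pair were not tested.

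Promoter windows were taken from RefSeq (GRCh38.p14), which matched 60 of the 72 members, and reach from 250 bases before to 50 after each start. Letters were searched on both strands and matches can overlap. CCAAT occurred in 83.3% of the members' windows against 34.6% of all 34943 windows, and in all but the H4 genes, where it was in 3 of 13. TATAAA occurred in 66.7% against 11.6%. ATTTGCAT, the octamer bound by POU-domain factors, occurred in 14 of 18 H2B and 10 of 13 H2A windows against 1.77% of all. Windows of head-to-head genes overlap, so a single octamer can count for both. AAACACA, known as the H1 box, occurred in 6 of 6 H1 windows against 5.66% of all. Of the 5 matched members that fell, 5 had CCAAT, 3 TATAAA and 3 the octamer, and of the 13 matched members tested that did not pass, 10, 10 and 7 did. The 150 bases before the start of 5 members follow, with those 4 motifs in capitals. They are 3 of the most abundant members and the head-to-head pair with the widest contrast in the GC-corrected blocked fit.
HIST1H1C (chr6:26056471-26056620, minus strand): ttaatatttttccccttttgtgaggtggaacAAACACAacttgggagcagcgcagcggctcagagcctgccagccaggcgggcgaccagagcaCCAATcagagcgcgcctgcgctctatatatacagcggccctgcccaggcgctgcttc
HIST3H2A (chr1:228457874-228458023, minus strand): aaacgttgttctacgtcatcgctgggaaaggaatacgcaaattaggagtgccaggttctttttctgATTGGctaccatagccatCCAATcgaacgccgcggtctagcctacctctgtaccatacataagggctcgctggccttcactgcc
HIST1H2BK (chr6:27146859-27147008, minus strand): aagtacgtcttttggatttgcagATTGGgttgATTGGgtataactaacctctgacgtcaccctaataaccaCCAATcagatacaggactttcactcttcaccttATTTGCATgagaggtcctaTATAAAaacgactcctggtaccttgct
HIST1H2AE (chr6:26216771-26216920, plus strand): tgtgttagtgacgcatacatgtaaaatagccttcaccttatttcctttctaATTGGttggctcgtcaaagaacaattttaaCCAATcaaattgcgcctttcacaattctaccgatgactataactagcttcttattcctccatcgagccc
HIST1H2BG (chr6:26216689-26216838, minus strand): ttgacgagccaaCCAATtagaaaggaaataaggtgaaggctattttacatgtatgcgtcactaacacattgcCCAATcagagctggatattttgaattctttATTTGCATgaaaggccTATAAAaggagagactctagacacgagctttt
HIST1H2AE and HIST1H2BG share part of the printed stretch on opposite strands. The HIST1H2BG stretch holds the octamer and TATAAA, and the HIST1H2AE stretch holds only CCAAT in both orientations. The full window of HIST1H2AE reaches further and did hold TATAAA and the octamer, so the counts above include it for both. No match says only that these letters are not in the stretch shown.

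The transcript models also differed among the members, but those that fell were found with each kind. Of 35 members whose model ends at the coding end, 7 were tested and 3 fell. Of 26 whose model goes on for 200 bases or more after the coding end, 11 were tested and 2 fell. Of 11 with a shorter stretch, 6 were tested and 2 fell. Where the model holds only the coding part, reads from the ends of the transcript were not counted, and the length behind the FPKM is the coding length. The median log2 difference was -0.93, -0.39 and -0.81 in the 3 kinds. The 2 tested members that were higher in all pairs, HIST1H2AC and HIST1H4H, had models that go on for 1128 and 1655 bases after the hairpin, as does HIST2H2BE, which fell, for 1729.

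Control 3 stood further above the other controls, at the median, in tested members of high GC content than in those of low GC content. In the 12 tested members above 55% GC, control 3 over the mean of controls 1 and 2 had a median of 3.08, and it was above both other controls in 11. In the 11 members under 50% GC the median was 1.70, with 9 above both. Across the 24 members the Spearman correlation of GC content was 0.373 with that ratio and -0.236 with the fitted log2 difference, as a description of genes that share libraries. HIST1H2AE, HIST1H3B, HIST1H1C, HIST1H2BK and HIST3H2A had differences of -1.30, -2.38, -0.77, -0.69 and -0.67 over replicates 1 and 2, without replicate 3. Their falls were thus present, and smaller, without the replicate that stood apart.

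No tested gene of the machinery that makes and destroys histone mRNA passed. Of 25 genes for histone gene transcription and 3′ processing, 20 were tested. NPAT, CASP8AP2, POU2F1, LSM11 and FIP1L1 averaged under 1 FPKM and were not tested. None of the 20 passed in either fit, with a median log2 difference of -0.013 in the GC-corrected blocked fit. Its 3 smallest p-values belonged to CLP1, a kinase of the cleavage complex (-0.29 ± 0.065), CPSF1, the largest subunit of the cleavage and polyadenylation factor (0.17 ± 0.047), and SRRT, a partner of the cap-binding complex (-0.15 ± 0.048). SLBP, the stem-loop binding protein, named after its values were seen, measured 15.6, 16.3 and 14.3 FPKM in controls and 15.4, 13.5 and 12.2 FPKM with SCARNA13 ASO (-0.14 ± 0.069, adjusted p = 0.224; 0.224 to 1.0). Of 19 histone mRNA decay genes, 13 were tested, and XRN1, DCP2, DIS3 and ATR were among those that were not. None of the 13 passed (median -0.044). The smallest p-values were those of EXOSC10, an exosome nuclease (-0.30 ± 0.060), UPF1, a helicase that joins SLBP in decay (-0.20 ± 0.046), and LSM1, of the decay ring (0.19 ± 0.073).

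Most genes of S phase and DNA replication had lower values, but few passed. Of 42, 41 were tested, and in the GC-corrected blocked fit 5 fell, 0 rose and 36 did not pass, with a median of -0.18. In that fit 34 of the 41 had a lower value. An unadjusted p under 0.05 was reached by 17 of the 41, against 3167 of all 10104 genes tested. The count of genes that passed was 0 with the block alone. In the GC-corrected blocked fit it was 0 without replicate 1, 0 without replicate 2 and 10 without replicate 3. Of all 10104 genes, those fits called 15, 0 and 746, of which 8, 0 and 330 were lower. CCNE1 (cyclin E1, which drives entry into S phase) measured 5.995, 6.35 and 6.59 FPKM in controls and 4.04, 4.22 and 4.44 FPKM with SCARNA13 ASO, with no overlap. It fell by 0.48 ± 0.063 on the log2 scale (adjusted p = 0.037; 0.0316 to 1.0). FEN1, a nuclease of lagging-strand synthesis, fell by 0.34 ± 0.051, PCNA, the sliding clamp, by 0.28 ± 0.046, CDT1, a licensing factor, by 0.44 ± 0.078, and POLD1, a DNA polymerase subunit, by 0.25 ± 0.046. CDT1 and POLD1 were lower with SCARNA13 ASO in each pair, and far higher in replicate 3 of both groups. They turned to 0.26 and 0.30 with group alone when Control ASO replicate 3 was left out. That fit keeps SCARNA13 ASO replicate 3 without its pair. These falls were smaller than those of the 7 histone genes. The difference between the lists was not tested.

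Among 21 genes for histone chaperones and the modification of new histones, 19 were tested and 1 fell in the GC-corrected blocked fit, and 0 did in that fit without replicate 1, without replicate 2 or without replicate 3. That gene was HJURP, the chaperone of the centromeric H3 (-0.36 ± 0.063, adjusted p = 0.0477; 0.0477 to 1.0), and the median was -0.095. The replacement variants, many of them made outside S phase from polyadenylated mRNA, held no gene that fell in the GC-corrected blocked fit. Of 12, 11 were tested, and in the GC-corrected blocked fit 0 fell, 2 rose and 9 did not pass, with a median of 0.023. Without replicates 1, 2 and 3, that fit called 0, 0 and 3 variants, against 15, 0 and 746 of all 10104 genes. Of the 3 variants, 1 was lower. In the fit with all replicates, 5 of the 11 had a lower value. CENPA (-0.34 ± 0.064, adjusted p = 0.0515) and H3F3A (-0.38 ± 0.079, adjusted p = 0.0577) lay just outside the threshold. H2AFY2, which encodes a macroH2A, measured 11.1, 11.8 and 9.88 FPKM in controls and 16.4, 17.7 and 15.6 FPKM with SCARNA13 ASO, so that all treated libraries lay above all controls. It rose by 0.62 ± 0.061 (adjusted p = 0.036; 0.0101 to 1.0). H1FX, a linker histone variant, rose by 0.32 ± 0.052 (adjusted p = 0.0436; 0.015 to 1.0), with 102, 101 and 333 FPKM in controls and 121, 133 and 347 FPKM with SCARNA13 ASO. With group alone its difference was 0.23, and it turned to -0.052, -0.059 and -0.25 without Control ASO replicate 1, Control ASO replicate 2 and SCARNA13 ASO replicate 3. The counts of these lists in the fit with all replicates stand beside 2.15% lower and 3.06% higher of all genes tested.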

How the data were processed

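RNA-seq of 3 Control ASO and 3 SCARNA13 ASO libraries of HCCLM3 cells was analysed, grouped by sample title. Each deposited file lists genes with an FPKM value for its library. The submitters' processing notes list Bowtie2 2.0.6, TopHat2 2.0.9 and hg19 without saying what each did. Not given in the sources used here were the counting tool and annotation. The deposited gene positions match GRCh38: of 58039 identifiers shared with GENCODE 29, 97.6% have identical start and end, as do all 72 members. FPKM times gene length gave whole reads for 100% of values at a tolerance of 0.01.

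The main test was limma-trend (limma 3.58.1, R 4.3.3) on log2(FPKM + 0.5) with group as the only term. It covered the 10120 genes that averaged 1 FPKM or more, with two-sided Benjamini-Hochberg adjusted p-values over all of them. Differences on this scale understate the change of low genes. Alternatives changed the pseudocount, filter, scale, block, GC correction (loess on GC content, span 0.5, 10104 genes), model (limma-voom on recovered reads) and libraries. Deviations from group means correlated at 0.835, 0.785 and 0.915 for libraries with the same replicate number, so the numbers, which come from the titles, were taken as pairs. Crossed pairs of replicates 1 and 2 reached 0.805 and 0.814, so the values set apart only replicate 3. Class sums were described without a test. Read ratios have exact 95% intervals that cover counting error only, given for members with 20 reads or more. All tested members were named, with the 2 members of most reads per class under the filter. In each related list the called genes were named, or else the 3 with the smallest p. The members and lists were chosen with earlier results of these data known.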

Additional observations from a re-analysis of the deposited data

How the results depend on the processing

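The deposited scale, pseudocount (0.1 or 1), filter (none or 5 FPKM), total-reads scale, limma-voom without a block, and leaving out any single library without a block all gave 0 called genes and 0 called histone genes, as did the replicate block on its own. The replicate block with GC correction called 526 genes and 7 histone genes, the replicate block on the total-reads scale called 187 and 5, and limma-voom with the replicate block called 898 and 9. Leaving out replicate 1, 2 and 3 with the replicate block gave 51, 268 and 629 genes and 6, 10 and 8 histone genes, and with GC correction as well (chosen after seeing the data) 15, 0 and 746 genes and 2, 0 and 9 histone genes. All called histone genes were lower. S phase and DNA replication genes numbered 5 with the block and GC correction, 3 with limma-voom and the block, 0 with the block on the total-reads scale, and 0 to 9 and 0 to 10 in the leave-out fits without and with GC correction. Chaperone genes numbered 1 with the block and GC correction, 0 with the block on the total-reads scale, 1 with limma-voom and the block and 0 to 1 in the leave-out fits. Replacement variants numbered 2 with the block and GC correction, 1 on the total-reads scale with the block and 2 with limma-voom and the block. They numbered 0 to 2 and 0 to 3 in the leave-out fits without and with GC correction. Of the variants called without replicate 3, 1 was lower, both without and with GC correction. The cause of these shifts was not tested.

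Of 24 tested members, 16 kept their direction over the 22 alternatives that could be run for them, among them the 7 called with the block and GC correction. HIST1H2BG was positive on the total-reads scale with and without the block (0.050), in limma-voom (0.046) and in limma-voom with the block (0.13), and HIST1H2BC likewise (0.053, 0.063 and 0.052). With the block, HIST1H2BG was at 0.12 and 0.23 without replicates 1 and 2 (0.13 and 0.24 with GC correction), and HIST1H2BC at 0.10 and 0.043 without replicates 1 and 3 (0.11 and 0.067 with GC correction). Leaving out a single library without a block gave ranges that cross 0 for HIST1H2BG (-0.73 to 0.34), HIST1H2BC (-0.24 to 0.14), HIST1H1E (-0.50 to 0.22), HIST1H4B (-0.97 to 0.26), HIST1H4C (-1.47 to 0.064), HIST1H4E (-1.002 to 0.037), HIST1H2AC (-0.095 to 0.39) and HIST1H2AH (-0.26 to 0.79). The same held for the related genes CDT1 (-1.09 to 0.26), POLD1 (-0.86 to 0.30), UPF1 (-0.66 to 0.20), SRRT (-0.46 to 0.076), LSM1 (-0.0064 to 0.27), CPSF1 (-0.34 to 0.61) and H1FX (-0.25 to 0.80). Leaving out Control ASO replicate 3 reversed 7 members, in a fit that keeps SCARNA13 ASO replicate 3 without its pair. The class ratios without the gene of most reads moved beyond 1 SD for H1 (-0.17), H3 (-0.49) and H4 (-0.059). The filter on level left 48 members untested, and for 9 of the 11 among them with 20 reads or more a ratio of 1 lay within the counting interval.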
